A study of Mus musculus with 6 samples.

Results

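Semaphorins, plexins, ephrins, Eph receptors, netrins and netrin receptors are the main families of guidance ligands and receptors. The 63 genes described here were taken, by symbol, from the 57132 genes listed in an RNA-seq count table of immortalized mouse podocytes. They are the protein-coding genes whose symbols place them in semaphorin classes 3 to 7, the plexins, ephrin-A and ephrin-B, EphA and EphB, the numbered netrins or the Unc5 family, together with Dcc and Neo1. The rule uses symbols and no measured value, but earlier results of these data were known when it was set. Of the 63, 32 are ligands and 29 are receptors. The other 2, Unc50 (a Golgi membrane protein) and Unc5cl (a death-domain protein), match by name only and are no guidance receptors.

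The libraries came from 3 samples of an immortalized wild-type line (IMWT, Col4a3+/+, WT podocytes) and 3 of an immortalized Alport syndrome line (IMAS, Col4a3-/-, AS podocytes). Podocytes are the epithelial cells that wrap the glomerular capillaries, and Col4a3 encodes the chain of type IV collagen that is lost in this model of Alport syndrome. Both lines are labelled as coming from male mice 8 weeks old, and both were made by breeding with H-2Kb-tsA58 mice, which carry a temperature-sensitive large T antigen under an interferon-responsive promoter. By the labels, all samples were kept at 33 °C with 20 U/mL interferon gamma, differentiated at 37 °C for 14 days and given no treatment. Each genotype is 1 cell line, so genotype and line cannot be told apart. The sources do not say if sets 1 to 3 of a line were grown as separate cultures, so p-values measure only the spread between these samples. Values below are listed in the order of sets 1, 2 and 3.

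Semaphorins are secreted or membrane-bound proteins that act through plexins, and most class 3 semaphorins need a neuropilin as coreceptor. Ephrins sit on the cell surface, ephrin-A by a lipid anchor and ephrin-B by a transmembrane segment, and both they and the Eph receptor kinases can signal into the cell that carries them. Netrins are laminin-related secreted proteins that bind Dcc, neogenin (Neo1) and the Unc5 receptors. All 3 systems act on actin and adhesion, and in the glomerulus Sema3a from podocytes and ephrin-B1 at the slit diaphragm are the best known members.

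The total count lay between 45417221 and 54290968 reads per sample, of which the 63 genes held 0.483 to 0.567%. Levels are CPM (reads scaled to a common library size by TMM), and levels of different genes are compared only as CPM per kb of annotated exon. The Col4a3 level was 938.1, 1052 and 1272 CPM in WT and 62.4, 61.2 and 83.0 CPM in AS podocytes, lower in every AS sample. Defining podocyte markers were present only in part. Of 12 markers, Tcf21 had no count, Nphs1 and Ptpro were below 1 CPM in both lines, and Wt1 was 20.6 ± 5.28 CPM (SD, n = 3) in WT and 2.51 ± 0.928 CPM in AS podocytes. Synpo, which encodes synaptopodin, was 803.2 ± 44.2 and 526.1 ± 30.8 CPM. Of the 9 podocyte markers tested, 2 rose and 6 fell. For this and the other lists, the shares of all genes tested were 20.4% higher and 19.6% lower. The summed level of the podocyte list was 2144 to 2464 CPM in WT and 1702 to 1841 CPM in AS podocytes, and that of 8 mesangial and fibroblast markers was 278 to 312.6 and 711.1 to 953.3 CPM. In the latter list 3 genes rose and 1 fell, with Col1a1 at 24.3 (WT) and 476.8 CPM (AS) and Pdgfrb at 252.5 and 115.9 CPM. Sums for the endothelial list were 51.8 to 61.8 and 39.0 to 44.4 CPM, with Pecam1, Cdh5, Tek and Emcn below 1 CPM and Tie1 at 0, and the 3 endothelial genes tested fell. Summed tubular and parietal epithelial markers reached 710.0 to 848.8 and 710.8 to 874.9 CPM. Of the 5 tested in that list, 1 rose, Cdh16 from 71.3 to 199.7 CPM, and 1 fell, Pax2 from 171.5 to 115.5 CPM. Leukocyte markers summed to 1.56 to 3.14 and 1.87 to 2.78 CPM, with Adgre1 and Cd3e at 0. The part of these marker levels in the results below was not tested. In bulk samples, fewer cells of a type and less RNA per cell cannot be told apart.

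AS over WT was tested with edgeR's quasi-likelihood test across 16263 genes, with Benjamini-Hochberg adjustment over all of them. Of the 63 genes, 51 had enough counts to be tested and 12 did not. An adjusted p under 0.05 was reached by 31 of the 51, which is 60.8%, against 40.1% of all genes tested. Calls went both ways: 19 members were higher in AS podocytes (20.4% of all genes tested were) and 12 were lower (19.6% of all genes). With a fold change over 2 as well, 5 members were higher and 3 lower, where 4.59% and 6.59% of all genes were. Groups did not overlap for 33 of the 51 members, against 52.3% of all genes tested (8513 of 16263). The median log2 fold change of the members was 0.14 and that of all genes 0.0061, while the median size regardless of sign was 0.51 for the members and 0.28 for all genes. Among 30 ligands tested, 12 rose and 6 fell, and among 20 receptors, 7 rose and 6 fell.

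**Figure D1:**
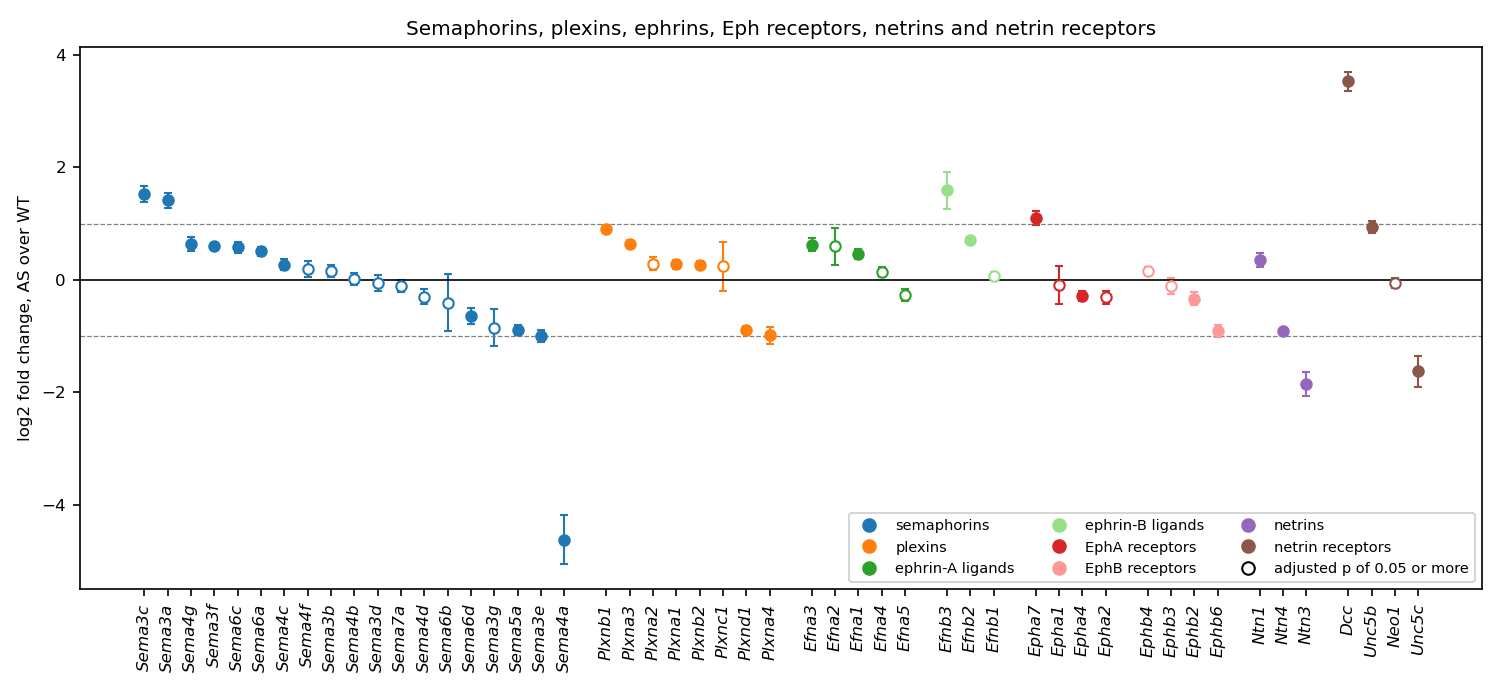
Log2 fold change of AS over WT podocytes (vertical axis) for the 50 tested ligands and receptors (horizontal axis), grouped by role and sorted within it. Points are edgeR estimates, bars are their standard errors, filled points have an adjusted p under 0.05 and dashed lines mark a fold change of 2. Dcc at 3.53 and Sema4a at -4.62 lie farthest from 0, and the ephrin ligands that pass the test all lie above 0. Of all genes tested, 20.4% passed as higher and 19.6% as lower.

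The promoters of 4 members are shown because, among the members past a fold change of 2 that matched a promoter entry, these changed the most on the log2 scale. Dcc and Efnb3, which changed more than Sema3c, are not shown. Each is the 300 bases around the annotated start, 5′ to 3′ in the direction of the gene, from RefSeq on GRCm38.p6, and 54 of the 63 genes matched an entry. Capitals mark the GC box (GGGCGG or, on the other strand, CCGCCC). Sema4a lies at chr3:88461133-88461432 on the minus strand (the outermost of 4 annotated starts), Ntn3 at chr17:24209338-24209637 on the minus strand, Unc5c at chr3:141465314-141465613 on the plus strand and Sema3c at chr5:17574566-17574865 on the plus strand.
Sema4a: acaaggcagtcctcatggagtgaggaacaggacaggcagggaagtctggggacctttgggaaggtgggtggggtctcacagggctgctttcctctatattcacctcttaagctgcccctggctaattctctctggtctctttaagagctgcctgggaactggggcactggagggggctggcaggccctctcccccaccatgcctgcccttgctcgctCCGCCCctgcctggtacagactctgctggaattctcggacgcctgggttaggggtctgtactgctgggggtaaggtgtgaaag
Ntn3: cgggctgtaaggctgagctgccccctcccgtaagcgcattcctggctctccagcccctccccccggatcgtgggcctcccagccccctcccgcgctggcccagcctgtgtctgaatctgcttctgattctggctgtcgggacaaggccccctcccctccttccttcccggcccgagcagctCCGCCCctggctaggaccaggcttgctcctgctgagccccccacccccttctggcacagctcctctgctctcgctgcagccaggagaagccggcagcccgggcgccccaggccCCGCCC
Unc5c: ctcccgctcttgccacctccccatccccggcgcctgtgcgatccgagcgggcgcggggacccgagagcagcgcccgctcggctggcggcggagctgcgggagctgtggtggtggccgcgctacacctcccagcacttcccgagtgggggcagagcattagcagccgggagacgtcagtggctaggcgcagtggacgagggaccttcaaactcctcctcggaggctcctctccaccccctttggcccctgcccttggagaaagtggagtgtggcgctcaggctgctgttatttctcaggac
Sema3c: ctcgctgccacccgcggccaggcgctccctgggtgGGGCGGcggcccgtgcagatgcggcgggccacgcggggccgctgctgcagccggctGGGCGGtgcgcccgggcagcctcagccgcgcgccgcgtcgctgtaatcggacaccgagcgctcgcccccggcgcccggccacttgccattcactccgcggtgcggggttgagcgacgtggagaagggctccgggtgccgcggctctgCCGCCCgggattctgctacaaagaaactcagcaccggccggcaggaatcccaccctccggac
CpG dinucleotides number 4 in Sema4a, 16 in Ntn3, 24 in Unc5c and 42 in Sema3c, and any link to the direction of change was not tested. The median of 32851 mouse promoters of this length was 7. GC boxes, searched on both strands, number 1 in Sema4a, 2 in Ntn3, 0 in Unc5c and 3 in Sema3c, and 35.7% of all promoters hold at least 1. Neither TATAAA (in 13.6% of all promoters) nor CCAAT (in 37.4%) occurs in any of the 4 on either strand. A match is a description of these letters and not a bound site.

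Among the class 3 semaphorins, the secreted members, 3 of 7 rose and 1 fell (57.1% called, against 40.1% of all genes tested). Sema3c, which acts through both neuropilins, was 56.1, 82.3 and 76.9 CPM in WT and 224.8, 214.1 and 178.2 CPM in AS podocytes. Every AS sample lay above every WT sample, and the rise was 2.87-fold (log2 fold change 1.52, SE 0.14, adjusted p = 3.3e-05). Sema3a, the classical growth cone collapsing ligand that binds neuropilin-1, was 41.1, 62.9 and 53.5 CPM in WT and 135.9, 153.8 and 129.7 CPM in AS podocytes. It rose 2.66-fold (1.41, SE 0.13, adjusted p = 4.41e-05), again without overlap. Sema3f, a ligand of neuropilin-2, had the highest level per length of all semaphorins in both lines, with 169.5, 170.9 and 172.0 CPM in WT and 260.8, 257.2 and 255.6 CPM in AS podocytes. The samples of each line lay within a few CPM of each other, and the rise was 1.51-fold (0.59, SE 0.05, adjusted p = 2e-05).

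Sema3e, which binds plexin-D1 without a neuropilin, was the class 3 member that fell. It measured 263.9, 283.4 and 272.0 CPM in WT and 152.6, 144.9 and 112.9 CPM in AS podocytes. The log2 fold change was -0.998 (SE 0.10, adjusted p = 6.78e-05). The WT samples lay close together and well above all AS samples. The other 3 class 3 members did not pass the test: Sema3b at 9.91 ± 0.732 and 11.1 ± 1.07 CPM, Sema3d at 52.1 ± 7.06 and 50.1 ± 9.99 CPM, and Sema3g at 1.47 ± 0.514 and 0.816 ± 0.187 CPM (WT and AS, mean ± SD, n = 3). Of these, Sema3g did not overlap between lines (log2 fold change -0.85, adjusted p = 0.0626).

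Sema3d, Sema3a, Sema3e and Sema3c lie near each other on chromosome 5, in that order. By GENCODE M21, 0 protein-coding genes lie between Sema3d and Sema3a, 1 between Sema3a and Sema3e, and 16 between Sema3e and Sema3c. Along this stretch the log2 fold changes were -0.06, 1.41, -0.998 and 1.52, so neighbouring genes moved in opposite directions. Sema3b and Sema3f, with 3 genes between them on chromosome 9, were at 0.16 (not called) and 0.59.

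The membrane-bound semaphorins of classes 4 to 7 gave 4 rises and 3 falls among 12 tested (58.3%, against 40.1% of all genes tested). Sema4a, a transmembrane semaphorin best known from immune cells and the retina, had the largest fall of all members. It had 98, 68 and 123 reads in WT and 5, 5 and 2 reads in AS podocytes, or 1.93, 1.45 and 2.67 CPM against 0.111, 0.0973 and 0.0363 CPM. All 3 AS samples were close to the level of a few reads, and the fall was 24.6-fold (log2 fold change -4.62, SE 0.44, adjusted p = 4.1e-05). In WT podocytes Sema4a stood at only 0.373 CPM per kb, 17th of 20 semaphorins.

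Sema5a, which carries thrombospondin repeats, was among the most highly expressed semaphorins, with 489.1, 425.3 and 418.4 CPM in WT and 265.9, 215.3 and 238.1 CPM in AS podocytes. It fell 1.85-fold (-0.89, SE 0.09, adjusted p = 6.78e-05) without overlap. Sema6d, a ligand of plexin-A1, fell from 9.98 ± 0.679 to 6.41 ± 1.05 CPM (-0.64, adjusted p = 0.00568). The 4 that rose did so by less than 2-fold. Sema4g, a class 4 ligand of plexin-B2, rose from 6.20 ± 0.483 to 9.60 ± 0.922 CPM (0.63), Sema6c from 7.80 ± 0.385 to 11.7 ± 0.27 CPM (0.58) and Sema6a, a ligand of plexins A2 and A4, from 11.2 ± 0.469 to 15.9 ± 0.26 CPM (0.51). Sema4c, another plexin-B2 ligand, rose from 21.8 ± 1.11 to 26.3 ± 2.83 CPM (0.27, adjusted p = 0.0362), a call that was lost in 4 of the 6 fits that left out 1 sample.

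The other 5 membrane-bound semaphorins did not pass the test. Sema4b (24.0 ± 3.7 and 24.4 ± 0.662 CPM), Sema4d (19.7 ± 2.57 and 16.0 ± 2.63 CPM, the plexin-B1 ligand), Sema4f (6.16 ± 0.482 and 7.02 ± 1.07 CPM), Sema6b (0.364 ± 0.16 and 0.275 ± 0.114 CPM) and the lipid-anchored Sema7a (37.1 ± 2.97 and 34.5 ± 4.75 CPM) had log2 fold changes between -0.40 and 0.19. Sema5b, with 1 read in 1 WT sample, was not tested.

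**Figure D2:**
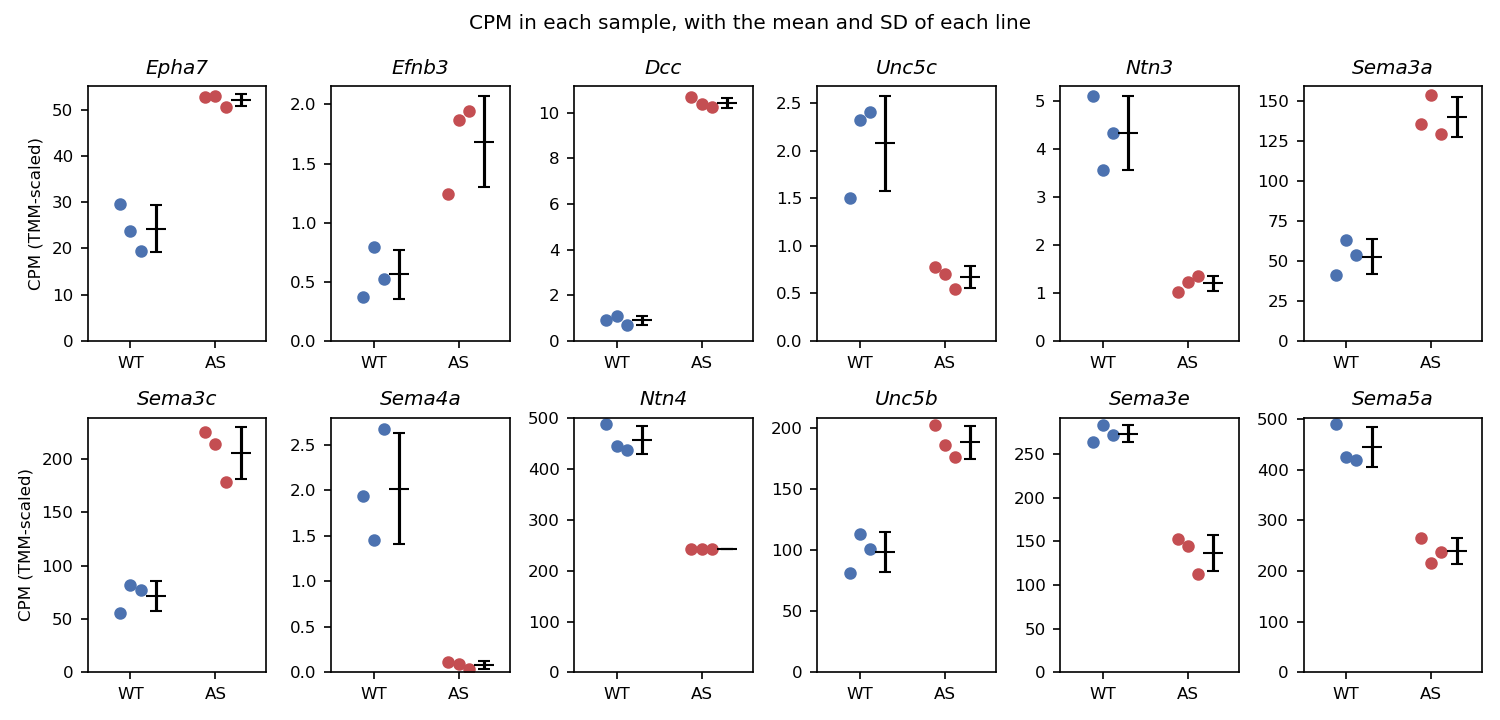
TMM-scaled CPM (vertical axes, each starting at 0) of 12 ligands and receptors in the 3 WT samples (blue) and the 3 AS samples (red), in order of sets 1 to 3, with the mean and SD beside them. The WT and AS samples are separate in all 12 panels, but all 12 genes were picked from members that passed the test. Between lines, 52.3% of all genes tested did not overlap. Ntn4 in AS podocytes has almost no visible spread, at 243.0, 243.0 and 243.6 CPM.

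Of the plexins, the semaphorin receptors, 8 of 9 were tested, 4 rose and 2 fell, each by less than 2-fold. That is 75% of those tested, against 40.1% of all genes tested. Plxnb2, which binds class 4 semaphorins, had the highest level per length of all 61 ligands and receptors in AS podocytes. It was 923.2, 984.3 and 869.2 CPM in WT and 1158, 1062 and 1121 CPM in AS podocytes, and the groups did not overlap. The rise was 1.2-fold (0.27, SE 0.07, adjusted p = 0.0139). It lies on chromosome 15, where the median log2 fold change of all expressed genes was 0.20, and relative to that median its change was 0.06. Plxna1, the second plexin in level, rose from 723.5 ± 17.4 to 875.1 ± 72.9 CPM (0.27, adjusted p = 0.0148). The call of Plxnb2 was lost without WT replicate 3 or AS replicate 1 (adjusted p = 0.0611 and 0.0653), and that of Plxna1 without either of these or AS replicate 3 (0.0541 to 0.0722).

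Plxnb1, the receptor of Sema4d, was 80.1, 74.5 and 73.5 CPM in WT and 145.2, 132.6 and 150.1 CPM in AS podocytes. It rose 1.88-fold (0.91, SE 0.06, adjusted p = 6.71e-06), with no overlap. Plxna3, a partner of neuropilins, rose from 30.4 ± 1.57 to 47.2 ± 3.62 CPM (0.64). Plxna4, also a neuropilin partner, fell from 19.2 ± 0.439 to 9.68 ± 2.33 CPM (-0.99, adjusted p = 0.000913). Plxnd1, the receptor of Sema3e, was 37.7, 41.2 and 37.8 CPM in WT and 21.8, 19.3 and 21.7 CPM in AS podocytes, a fall of 1.86-fold (-0.89, SE 0.07, adjusted p = 1.93e-05). Plxna2 (60.7 ± 10.1 and 74.2 ± 5.55 CPM, log2 fold change 0.29, adjusted p = 0.0609) and Plxnc1 (0.351 ± 0.129 and 0.413 ± 0.149 CPM, the Sema7a receptor) did not pass, and Plxnb3, with at most 3 reads in a sample, was not tested.

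Set beside their textbook partners, ligand and receptor moved together in some pairs and not in others. Sema3e and Plxnd1 both fell, by 0.998 and 0.89 on the log2 scale. Plxnb1 rose while Sema4d was at -0.30 and not called. Sema3a, Sema3c and Sema3f rose together with Nrp1 and Nrp2, the coreceptors of this class. Nrp1 was 399.1, 321.9 and 313.2 CPM in WT and 501.9, 422.9 and 492.1 CPM in AS podocytes (0.45, SE 0.10, adjusted p = 0.00663). Nrp2 was 62.9, 96.3 and 94.2 CPM in WT and 169.2, 157.0 and 158.9 CPM in AS podocytes (0.94, SE 0.14, adjusted p = 0.00062). Relative to the median of chromosome 8, which was 0.32, the Nrp1 change was only 0.13. For Nrp2, on chromosome 1, the change relative to that chromosome's median was 0.95. Neither neuropilin overlapped between lines. The lowest Nrp2 value was WT set 1, which was also the lowest WT sample for Sema3a and Sema3c but the highest for Nrp1. WT set 1 differed more from WT sets 2 and 3 (chi-square per degree of freedom 43 and 45.2) than these did from each other (9.06). Its part in these levels was not tested.

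Ephrin ligands that passed the test were all higher in AS podocytes, 2 of 5 ephrin-A (40%) and 2 of 3 ephrin-B (66.7%). Of all genes tested, 40.1% passed, 20.4% as higher and 19.6% as lower. Efnb3, an ephrin of the nervous system midline, was 0.375, 0.790 and 0.520 CPM in WT and 1.24, 1.87 and 1.94 CPM in AS podocytes, from 19 to 37 and 56 to 107 reads. The groups did not overlap, and the rise was 3.01-fold (1.59, SE 0.33, adjusted p = 0.00431). Efnb2, the partner of Ephb4 in blood vessels, was 190.6, 185.4 and 171.7 CPM in WT and 305.2, 292.2 and 297.4 CPM in AS podocytes. It rose 1.63-fold (0.71, SE 0.06, adjusted p = 1.93e-05), or by 0.38 relative to the median of chromosome 8, which was 0.32.

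Efnb1, the ephrin of the slit diaphragm, was the most highly expressed ephrin per length, with 150.9, 151.2 and 138.2 CPM in WT and 153.9, 155.8 and 154.3 CPM in AS podocytes. The AS samples lay just above the WT samples, and the difference did not pass the test (0.08, SE 0.06, adjusted p = 0.314). Efna1, an ephrin induced by inflammatory signals in endothelium, rose from 16.8 ± 1.28 to 23.1 ± 1.94 CPM (0.47, adjusted p = 0.00292) and Efna3 from 14.6 ± 1.90 to 22.5 ± 2.54 CPM (0.62, adjusted p = 0.0024). Efna4, the leading ephrin-A ligand per length, was 23.2, 19.4 and 20.8 CPM in WT and 22.0, 23.0 and 24.8 CPM in AS podocytes. Its groups overlapped and it was not called (0.14, adjusted p = 0.236). These 3 genes are direct neighbours on chromosome 3, with 0 protein-coding genes between them. Efna5 (36.1 ± 4.49 and 29.9 ± 3.52 CPM, -0.27, adjusted p = 0.0709) and Efna2 (1.05 ± 0.467 and 1.58 ± 0.202 CPM, 0.59, adjusted p = 0.18) did not pass. Efna5 did pass, as lower, in 5 alternative fits, among them DESeq2 (adjusted p = 0.0496), and Efna2, as higher, in 1.

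Among Eph receptors, 8 of 14 were tested and only Epha7 rose. Calls in either direction made up 50% of the tested EphA and 50% of the tested EphB receptors, against 40.1% of all genes tested. Epha7, an ephrin-A receptor of the developing nervous system, was 29.6, 23.8 and 19.4 CPM in WT and 52.7, 52.9 and 50.6 CPM in AS podocytes. No AS sample was near the WT range, and the rise was 2.14-fold (1.10, SE 0.13, adjusted p = 0.00015). Epha2, the main Eph receptor of epithelia and the highest per length here, was 399.1, 328.5 and 320.0 CPM in WT and 319.1, 284.4 and 242.1 CPM in AS podocytes. The groups were separated by less than 1 CPM, and the log2 fold change of -0.31 (SE 0.11) had an adjusted p of 0.0532. That value crossed 0.05 under several alternatives, with 0.0491 in limma-voom and 0.0252 without AS replicate 1. Epha4, which binds both ephrin classes, fell from 159.7 ± 19.1 to 131.0 ± 7.15 CPM (-0.29, adjusted p = 0.0239), a call lost without AS replicate 2 or 3 (0.0665 and 0.101).

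Ephb6, which lacks kinase activity, was 56.5, 45.2 and 45.2 CPM in WT and 28.1, 26.3 and 23.9 CPM in AS podocytes. It fell 1.88-fold (-0.91, SE 0.10, adjusted p = 0.00012), with WT set 1 the highest sample. Ephb2, an ephrin-B receptor, fell from 19.2 ± 0.384 to 15.2 ± 2.48 CPM (-0.33, adjusted p = 0.0456), and this call was lost in 4 of the 6 fits that left out 1 sample. Ephb4, the leading EphB receptor, was 93.4, 82.0 and 77.8 CPM in WT and 98.2, 94.3 and 91.4 CPM in AS podocytes, overlapping and not called (0.16, adjusted p = 0.0992). Ephb3 (22.9 ± 3.27 and 21.1 ± 3.91 CPM) did not pass, nor did Epha1 (0.822 ± 0.275 and 0.771 ± 0.167 CPM). Epha1 exons share 236 bases with the antisense gene Zyx, which had 250061 reads in all samples against 235 for Epha1, so its counts are uncertain.

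All 3 netrins tested passed the test, 1 higher and 2 lower. The shares of all genes tested were 20.4% higher and 19.6% lower. Ntn4, a netrin of basement membranes that binds laminin, had the highest level per length of all 61 ligands and receptors in WT podocytes, at 122.4 ± 7.4 CPM per kb, within the spread of Plxnb2 at 119.9 ± 7.46. It was 489.4, 445.9 and 437.9 CPM in WT and 243.0, 243.0 and 243.6 CPM in AS podocytes. The fall was 1.88-fold (-0.91, SE 0.06, adjusted p = 5.06e-06), and it was -1.24 relative to the median of chromosome 10, which was 0.32. Ntn1, the founding netrin, was 179.4, 150.6 and 122.0 CPM in WT and 198.6, 177.0 and 199.7 CPM in AS podocytes. The lines overlapped, and the rise of 0.35 (SE 0.12, adjusted p = 0.045) was lost in 5 of the 6 fits that left out 1 sample. Ntn3, a low-abundance netrin, was 5.11, 3.57 and 4.33 CPM in WT and 1.02, 1.23 and 1.34 CPM in AS podocytes. It fell 3.61-fold (-1.85, SE 0.21, adjusted p = 0.000115) with no overlap. Its exons share 89 bases with Tbc1d24 on the same strand, which had 7199 reads against 809, so reads in that stretch could be counted for either.

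The netrin receptors held the largest rise of all members. Dcc, the attractive netrin receptor of growing axons, was 0.927, 1.09 and 0.694 CPM in WT and 10.7, 10.4 and 10.3 CPM in AS podocytes, from 32 to 51 and 481 to 565 reads. No AS sample came near the WT range, and the rise was 11.5-fold (3.53, SE 0.17, adjusted p = 6.14e-07). Per length Dcc was still low in AS podocytes, at 0.792 ± 0.0163 CPM per kb. Unc5b, a repulsive receptor that is also expressed in endothelium, was 81.0, 113.4 and 100.7 CPM in WT and 202.5, 186.0 and 176.3 CPM in AS podocytes. It rose 1.91-fold (0.94, SE 0.11, adjusted p = 0.000169), or 0.61 relative to the median of chromosome 10. Unc5c, another repulsive receptor, was 1.50, 2.33 and 2.41 CPM in WT and 0.777, 0.700 and 0.545 CPM in AS podocytes. It fell 3.08-fold (-1.62, SE 0.28, adjusted p = 0.00149), so the tested Unc5 receptors went opposite ways. Neo1, a receptor of netrins and of repulsive guidance molecules, was 126.8 ± 13.2 and 122.0 ± 11.3 CPM and was not called (-0.06, adjusted p = 0.659).

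**Figure D3:**
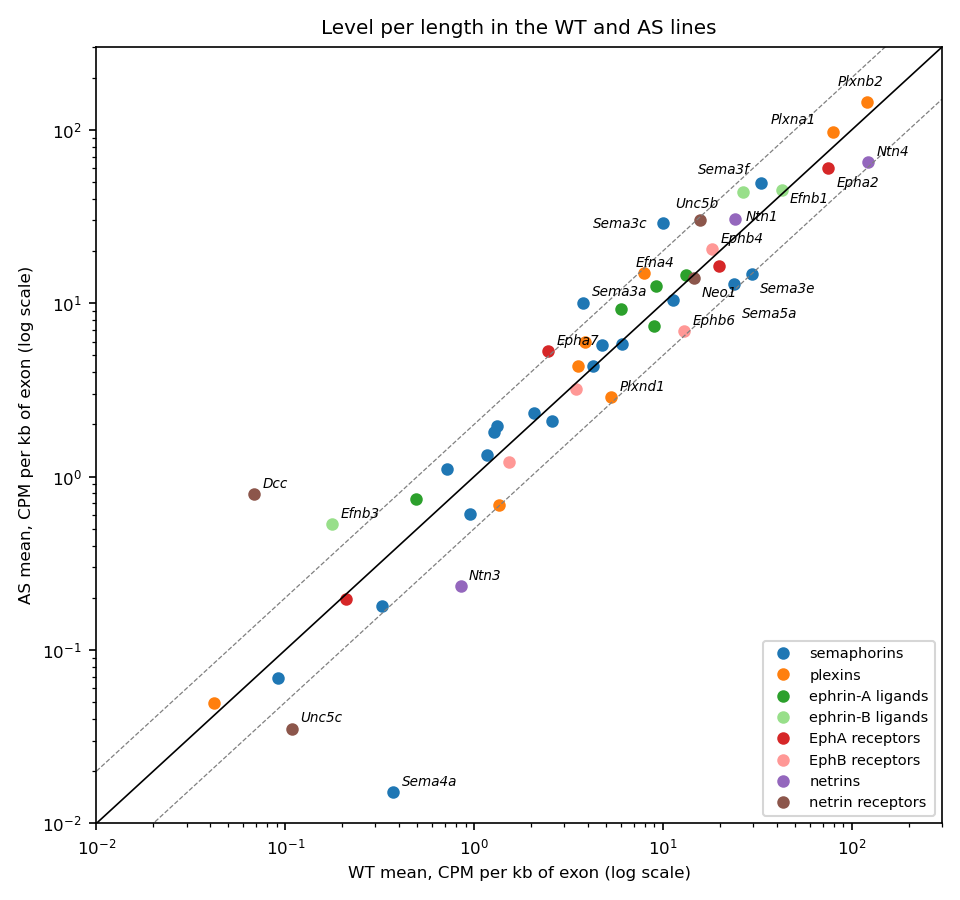
Mean CPM per kb of exon in WT (horizontal axis) and AS podocytes (vertical axis), both on log scales, for the 50 tested ligands and receptors, coloured by role. The solid line marks equal levels and the dashed lines a 2-fold difference. The most abundant members (Plxnb2, Plxna1, Ntn4, Epha2) lie between the dashed lines, and the points farthest outside them are Dcc and Sema4a, both below 1 CPM per kb in both lines.

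The make-up of each family was compared as shares of its summed CPM per kb, which depends on the exon lengths used. Semaphorins summed to 137.1 ± 2.55 CPM per kb in WT and 153.9 ± 8.65 in AS podocytes. Within that sum the share of Sema3f went from 24.0 ± 0.568% to 32.3 ± 1.6% and that of Sema3c from 7.33 ± 1.41% to 18.7 ± 1.21%, while Sema3e went from 21.5 ± 0.693% to 9.54 ± 0.964% and Sema5a from 17.3 ± 1.47% to 8.35 ± 0.887%. No sample of one line entered the range of the other for any of these 4 shares. The leading semaphorins were thus Sema3f, Sema3e and Sema5a in WT and Sema3f and Sema3c in AS podocytes.

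Plexins summed to 221.9 ± 8.71 and 269.7 ± 16.0 CPM per kb, with the main shares alike: Plxnb2 at 54 ± 1.51% and 53.5 ± 0.98%, and Plxna1 at 36.0 ± 1.21% and 35.8 ± 0.884%. Ephrins summed to 107.2 ± 5.27 and 133.4 ± 2.50 CPM per kb. Efnb1 held 39.7 ± 1.31% of the WT sum and 33.6 ± 0.85% of the AS sum, and Efnb2 24.9 ± 0.513% and 32.6 ± 0.533%. Eph receptors summed to 133.4 ± 15.1 and 113.8 ± 10.1 CPM per kb, sums that overlapped between lines. Of that sum, Epha7 held 1.83 ± 0.201% and 4.65 ± 0.322% and Ephb4 13.7 ± 0.286% and 18 ± 0.961%.

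Netrins summed to 147.3 ± 11.9 CPM per kb in WT and 95.8 ± 2.05 in AS podocytes, and netrin receptors to 30.5 ± 1.48 and 44.9 ± 3.22. The share of Ntn4 among netrins was 83.2 ± 1.87% in WT and 67.9 ± 1.41% in AS podocytes, and that of Ntn1 was 16.2 ± 1.88% and 31.9 ± 1.47%. Among netrin receptors, Unc5b and Neo1 held 51.4 ± 6.54% and 47.9 ± 6.59% in WT, where their order differed between samples, and 67.0 ± 1.32% and 31.2 ± 1.36% in AS podocytes. Dcc held 0.224 ± 0.0424% and 1.77 ± 0.0875%.

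**Figure D4:**
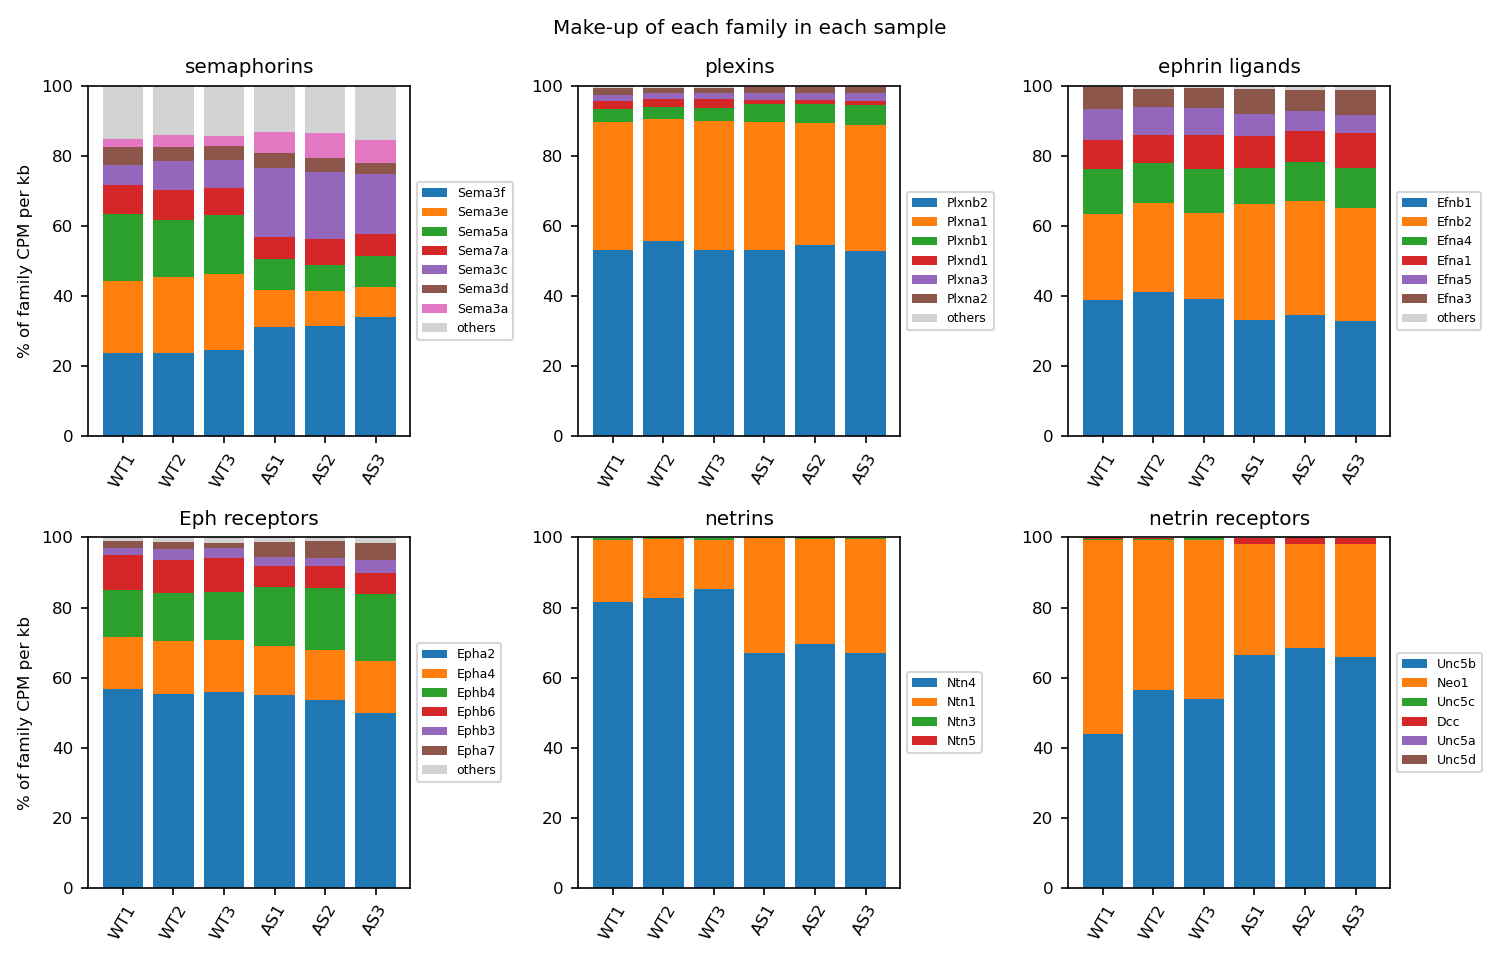
Share of each member in the summed CPM per kb of its family (vertical axes, %) in the 3 WT and 3 AS samples, with minor members joined as others. Sema3c and Sema3f widen and Sema3e and Sema5a narrow from WT to AS, the plexin panel changes little, and Ntn4 narrows from a mean of 83.2% to 67.9%.

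The other genes of these pathways, a list of 78 coreceptors, binding partners and signal transducers, were described by the same test. Of 72 tested, 34 passed (47.2%, against 40.1% of all genes), 17 higher and 17 lower in AS podocytes. The counts were 8 higher and 7 lower of 25 for semaphorins, 4 and 5 of 21 for ephrins, and 5 and 5 of 26 for netrins. L1cam, an adhesion molecule that joins neuropilin-1 in the Sema3a receptor, rose from 109.2 ± 2.32 to 250.3 ± 17.5 CPM (1.20, adjusted p = 1.05e-06). Flrt1, of a family that binds Unc5 receptors, rose from 0.451 ± 0.054 to 4.15 ± 0.676 CPM (3.19, adjusted p = 6.84e-06).

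Partners that fell by more than 2-fold were 5 of the 72 tested, where 6.59% of all genes tested did. Tiam1, a Rac exchange factor used by ephrins and Eph receptors, fell from 78.0 ± 10.7 to 28.9 ± 1.93 CPM (-1.43, adjusted p = 6.36e-06). Grip1, a scaffold of ephrin-B ligands, fell from 9.08 ± 2.01 to 2.73 ± 0.353 CPM (-1.73, adjusted p = 0.000115), and Lrrc4c, a ligand of the netrin-G proteins, from 2.01 ± 0.565 to 0.563 ± 0.118 CPM (-1.83, adjusted p = 0.0011). Dpysl4, of the collapsin response mediator family, was 2.90, 2.41 and 2.88 CPM in WT and 0.133, 1.05 and 0.200 CPM in AS podocytes (-2.55, SE 0.56, adjusted p = 0.00583), with AS set 2 apart from the other two. Without AS replicate 2 the log2 fold change was -4.00, and it was -2.14 without AS replicate 1. Timd2, a Sema4a receptor in immune cells, fell from 0.331 ± 0.146 to 0.0565 ± 0.0689 CPM (-2.56, SE 0.80, adjusted p = 0.0288), a call that was lost in 4 of the 6 fits that left out 1 sample. Its log2 fold change was -3.98 without AS replicate 1 and -1.99 without AS replicate 2.

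Median fold changes differed between chromosomes, so each member was also read against the median of its whole chromosome. The median of all expressed genes was 0.32 on chromosomes 8 and 10, 0.20 on chromosomes 5 and 15, 0.19 on chromosome 19, -0.16 on chromosome 4 and -0.20 on chromosome 6. With the median subtracted, every called member kept its sign. Changes became smaller for Sema3a (1.21), Sema3c (1.32) and Sema4g (0.44), and larger for Sema3e (-1.20), Sema5a (-1.09), Plxna1 (0.47) and Epha7 (1.26). On chromosome 6, Plxna4 (-0.79), Plxnd1 (-0.69) and Ephb6 (-0.71) remained below their chromosome's median.

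There were 12 genes too low to be tested. Unc5cl had no count. With a floor of 3 counts per group, this allows a level of 0.0209 CPM for the WT line and 0.0198 CPM for the AS line. Sema5b, Plxnb3, Epha3, Epha5, Epha6, Epha8, Epha10, Ephb1, Ntn5, Unc5a and Unc5d had between 0 and 11 reads in each sample. The highest of these was Ntn5, with 9, 11 and 5 reads in WT and 3, 11 and 0 in AS podocytes, and the repulsive receptor Unc5d had 3, 5 and 2 reads in WT and none in AS podocytes. Differences among these genes were not detectable at this depth. Unc50, tested but no guidance gene, was at 30.7 ± 1.59 and 33.6 ± 2.65 CPM and was not called (0.13, adjusted p = 0.222).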

How the data were processed

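RNA from 3 WT and 3 AS samples was sequenced after 15 cycles of PCR. The values are counts, which the authors deposited as unscaled whole numbers of reads for each gene. The submitters' processing notes name FastQC, Trim Galore, STAR, edgeR and mm39. For the counting tool, its use of strand and the annotation release, the sources used here give nothing. Symbols, exon lengths and gene order came from GENCODE M21 (GRCm38), to which 51880 of 57132 identifiers matched without their version. Promoters came from RefSeq on GRCm38.p6.

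After filterByExpr in R 4.3.3 (at least 10 counts in enough samples and 15 in total), TMM scaling was applied and edgeR 4.0.16 fitted genotype alone, with a two-sided quasi-likelihood test. Standard errors were approximated as log2 fold change over the root of the F statistic. Alternatives were DESeq2 1.42.0, limma-voom (limma 3.58.1), other scalings and filters, fits without 1 of the samples, a replicate block and chromosome medians subtracted. With 3 samples against 3, an exact permutation test reaches at best p = 0.10. Total counts of 45417221 to 54290968 per sample set the precision, and limits for counts of 0 cover counting error only. Exon lengths are the union of annotated exons.

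Values in every sample are given for members with an adjusted p under 0.05, a fold change over 2 and a mean CPM of at least 1 in a line, and for the highest per length of each role. Partners named are Nrp1, Nrp2 and those past a fold change of 2. Sema3e, Sema5a, Plxnb1, Plxnd1, Efnb2, Ephb6 and Ntn1 were given in every sample after their values were seen. Members and lists were chosen with earlier results of these data known.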

Additional observations from a re-analysis of the deposited data

How the results depend on the processing

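The number of members called was 31, and between 26 and 36 under all alternatives other than a stricter threshold, with 25 at an adjusted p under 0.01 (25.9% of all genes). It was 35 with DESeq2 (41.2% of all genes), 32 with limma-voom (40.1%), 36 of 62 without a filter on low counts (24.2%) and 26 to 32 when 1 sample was left out, where 30.7 to 40.4% of all genes were called. The 8 members past 2-fold kept direction and call in all 104 refitted values. Of 660 refitted values over 51 members, 607 kept direction and call, 21 lost the call, 24 gained it and 8 changed sign. Those 8 belong to 5 members that no fit called. When 1 sample was left out, the log2 fold change ranged from -0.14 to 0.0332 for Neo1, -0.18 to 0.10 for Sema3d, -0.0573 to 0.15 for Sema4b, -0.28 to 0.21 for Epha1 and -0.10 to 0.57 for Plxnc1. With the longest transcript as length, 7 of the 8 leading members per role stayed, and Efnb2 then stood above Efnb1. A replicate block gave 35 calls that held all 31, with 7066 genes called in all. Deviations of samples with the same set number correlated by 0.147, 0.0939 and 0.0526, of which 1 was over 0.1, so the numbers were not taken to pair the samples. Every sample but WT set 3 correlated best with its own number, a hint from the data and not from the design. Depth limits the 12 members not tested, and low members such as Plxnc1 and Sema6b have wide errors.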
